A study of Mus musculus with 6 samples.

Results

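Cyclins are regulatory subunits that switch on cyclin-dependent kinases (CDKs), and the pairs they form drive the cell cycle or regulate transcription. D-type cyclins with Cdk4 or Cdk6 act in G1, E-type and A-type cyclins with Cdk2 act around S phase, and B-type cyclins with Cdk1 drive mitosis. Cyclins H, C, T1, T2 and K work with kinases that act on RNA polymerase II or belong to the Mediator complex, and further members serve splicing, cilia, neurons or germ cells. Mouse embryonic stem cells are known for a short G1 phase.

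Of 21887 protein-coding mouse genes outside the mitochondrial genome, the 44 whose symbols match the pattern below were examined, 25 cyclin genes and 19 CDK genes. They were chosen by symbol alone, as Ccn followed by a letter and any digits or Cdk followed by digits and at most 1 letter, so no measured value entered the rule. Chromatin accessibility had been measured by ATAC-seq, in which the Tn5 transposase inserts sequencing adapters into open DNA. The cells were CGR8 mouse embryonic stem cells of the Cdt1-MD line (the protocols write Cdt-MD), grown untreated in N2B27 medium with leukemia inhibitory factor, 3 µM of the GSK3 inhibitor CHIR99021 and 1 µM of the MEK inhibitor PD184352. The samples form 3 groups of 2 peak lists, named mito, LM and eG1-1 and taken here for mitosis, late mitosis and the start of G1, after the series title on mitotic exit. No label explains the names, and the peak names of the LM lists read Telo. The titles give 10K cells where the protocol gives 50000. All groups share the line, the medium and the lack of treatment.

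A gene was held by a list where a peak overlapped 1 kb either side of its annotated start or end by at least 1 bp, and its value was the highest score among those peaks. The score is the authors' own number for a peak and its scale is not stated, so scores are given list by list and tests between groups used ranks. The lists held 20639 to 48396 peaks, fewest in LM replicate 2 and most in eG1-1 replicate 2, and LM replicate 2 held 35.7% of all protein-coding genes where the other lists held 42.1% to 52.7%. Read depth is unknown, so a gene without a peak is one where none was called, and a weaker peak in every cell cannot be told apart from a peak in fewer cells. Of 10 pluripotency markers, 8 and 6 were held by the mito lists, 4 and 3 by the LM lists, and 2 and 6 by the eG1-1 lists, with Esrrb and Dppa3 held by none. Of 4 endoderm markers only 1 was held, and by eG1-1 replicate 2 alone, while each list held 1 to 3 of 5 fibroblast, 0 to 3 of 3 neural, 0 to 2 of 3 mesoderm and 0 to 1 of 3 blood and endothelium markers. The part of other cells in the results was not tested.

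The sequence around the start site is shown for 4 members. Ccnb1 and Cdk1 encode the cyclin and the kinase of the mitotic pair and were held by all 6 lists, Ccne1 encodes cyclin E1 and was held by 2 lists, and Ccnl1 encodes cyclin L1 and was held at its start site by both mito lists and not in eG1-1. Ccnl1 was added after its values were seen. Each sequence runs 5′ to 3′ in gene direction from 250 bases before the start site to 50 bases after it, as RefSeq gives it for GRCm38.p6 (mm10). Capitals mark GGGCGG (the GC box bound by Sp and Klf factors), CCAAT (the NF-Y box) and TTTGAA (the core of the cell cycle genes homology region, CHR), on either strand and with overlapping matches run together. All 4 genes lie on the minus strand, Ccnb1 at chr13:100786437-100786736, Cdk1 at chr10:69352863-69353162, Ccne1 at chr7:38107441-38107740 and Ccnl1 at chr3:65958200-65958499.
Ccnb1: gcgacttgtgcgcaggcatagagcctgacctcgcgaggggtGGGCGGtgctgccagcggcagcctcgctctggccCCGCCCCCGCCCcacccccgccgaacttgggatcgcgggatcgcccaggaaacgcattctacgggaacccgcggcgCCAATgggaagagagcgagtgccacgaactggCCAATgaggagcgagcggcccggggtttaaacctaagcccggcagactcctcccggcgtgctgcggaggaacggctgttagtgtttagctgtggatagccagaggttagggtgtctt
Cdk1: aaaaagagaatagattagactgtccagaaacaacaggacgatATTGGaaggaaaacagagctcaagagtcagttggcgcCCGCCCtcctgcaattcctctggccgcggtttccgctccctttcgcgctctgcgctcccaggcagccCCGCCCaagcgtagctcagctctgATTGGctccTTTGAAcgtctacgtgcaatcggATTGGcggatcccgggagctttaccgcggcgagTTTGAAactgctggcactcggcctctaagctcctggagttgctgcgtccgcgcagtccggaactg
Ccne1: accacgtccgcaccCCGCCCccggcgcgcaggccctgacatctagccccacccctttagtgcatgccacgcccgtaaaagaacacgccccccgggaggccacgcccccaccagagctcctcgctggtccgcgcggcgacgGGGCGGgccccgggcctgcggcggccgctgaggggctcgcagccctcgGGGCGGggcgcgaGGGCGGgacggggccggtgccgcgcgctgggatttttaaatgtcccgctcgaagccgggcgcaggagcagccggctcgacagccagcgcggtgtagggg
Ccnl1: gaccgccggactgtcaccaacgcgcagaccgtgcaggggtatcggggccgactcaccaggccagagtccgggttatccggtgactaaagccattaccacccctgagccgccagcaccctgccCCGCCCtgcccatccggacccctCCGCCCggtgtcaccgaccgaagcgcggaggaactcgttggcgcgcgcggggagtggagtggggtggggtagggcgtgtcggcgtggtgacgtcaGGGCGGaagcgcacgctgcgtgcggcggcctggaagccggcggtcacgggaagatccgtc
The Cdk1 sequence held TTTGAA starting 71 and 15 bases before the start site, and CCAAT at 3 places on the opposite strand. The Ccnb1 sequence held CCAAT starting 99 and 67 bases before the start site and no TTTGAA. Ccne1 and Ccnl1 held GC boxes and neither of the other motifs, with 4 GC boxes at Ccne1 and 3 at Ccnl1.

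Start sites were available for 35 of the 44 genes, with 37 sequences in all, and not for Cdk5, Ccny, Ccne2, Ccnd2, Cdk17, Ccnd1, Ccna2, Cdk19 and Ccnh. GGGCGG was in 81.1% of the members' sequences and in 46.2% of the 21263 start-site sequences of protein-coding genes, and CCAAT in 45.9% of the members' and 38.2% of all. TTTGAA was in 13.5% of the members', at Ccnb2, Ccnf, Ccni, Cdk1 and Cdk16, and in 16.0% of all, and the variant TTCGAA in 0 of the members' and 1.85% of all. GCGGGAA, a core of the E2F site, was in 1 of the 37 member sequences, that of Cdk2, and in 5.95% of all, and TATAAA in 1, that of Cdk6, and in 12.6% of all. All 6 motifs were searched on both strands. The median GC content was 63.7% for the members and 56.3% for all sequences, and the median number of CG dinucleotides 26 and 13. Among the members, the 24 sequences of genes held at the start site by all 6 lists had a median of 24.5 CG dinucleotides and the other 13 one of 28. A motif match is a run of letters in this window, not a measured site.

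The cyclin and CDK genes were held more often than protein-coding genes as a whole in every list. Of the 44 genes, 34 and 36 were held in mito cells, 34 and 30 in LM cells and 30 and 34 in eG1-1 cells. The group means were 79.5% ± 3.21 in mito cells, 72.7% ± 6.43 in LM cells and 72.7% ± 6.43 in eG1-1 cells (SD, n = 2 each). Over all protein-coding genes the means were 48.5% ± 2.74 in mito cells, 41.6% ± 8.26 in LM cells and 47.4% ± 7.50 in eG1-1 cells (SD, n = 2 each). The members' shares overlapped between the groups, and 2 lists against 2 cannot give an exact permutation p below 0.333. Around start sites alone, 82.9% and 91.4% of the 35 members were held in mito cells, 88.6% and 77.1% in LM cells and 74.3% and 82.9% in eG1-1 cells, where the lists held 37.0% to 53.2% of all 17492 genes with a start site.

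In all, 25 members (56.8%) were held by all 6 lists, where 27.8% of all protein-coding genes were, and 5 members (11.4%) by none, where 38.6% of all were. Of the CDK genes, 13 of 19 were held by all lists and 0 by none. Of the cyclin genes, 12 of 25 were held by all lists and 5 by none, namely Ccna1, Ccnb3, Ccnd1, Ccnd3 and Ccnl1. At start sites, 23 of 35 members (65.7%) were held by all lists, where 29.3% of all genes with a start site were, and only Ccnb3 and Ccnd3 of these 35 were held by none. The start site lies away from both annotated ends in Ccna1, Ccnl1, Ccnl2 and Cdk6, and these 4 are given by both readings below. Of the 39 members held by any list, 7 had a peak that also lay at the boundary of a neighbouring gene in at least 1 list, namely Ccna2, Ccni, Ccnj, Ccnk, Cdk11b, Cdk2 and Cdk5, and such a peak cannot be given to either gene.

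**Figure D1:**
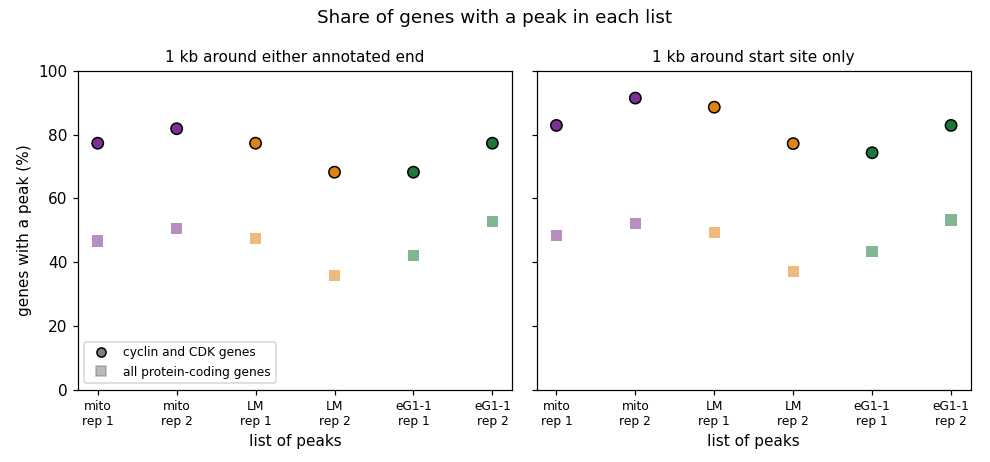
Share of genes held by each of the 6 peak lists (%), for the cyclin and CDK genes (circles) and all protein-coding genes (squares), around either annotated end (left) and around start sites alone (right), coloured by group. The members lie between 68.2% and 81.8% on the left and above all genes in every list on both sides, and for all genes LM replicate 2 is the lowest list.

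**Figure D2:**
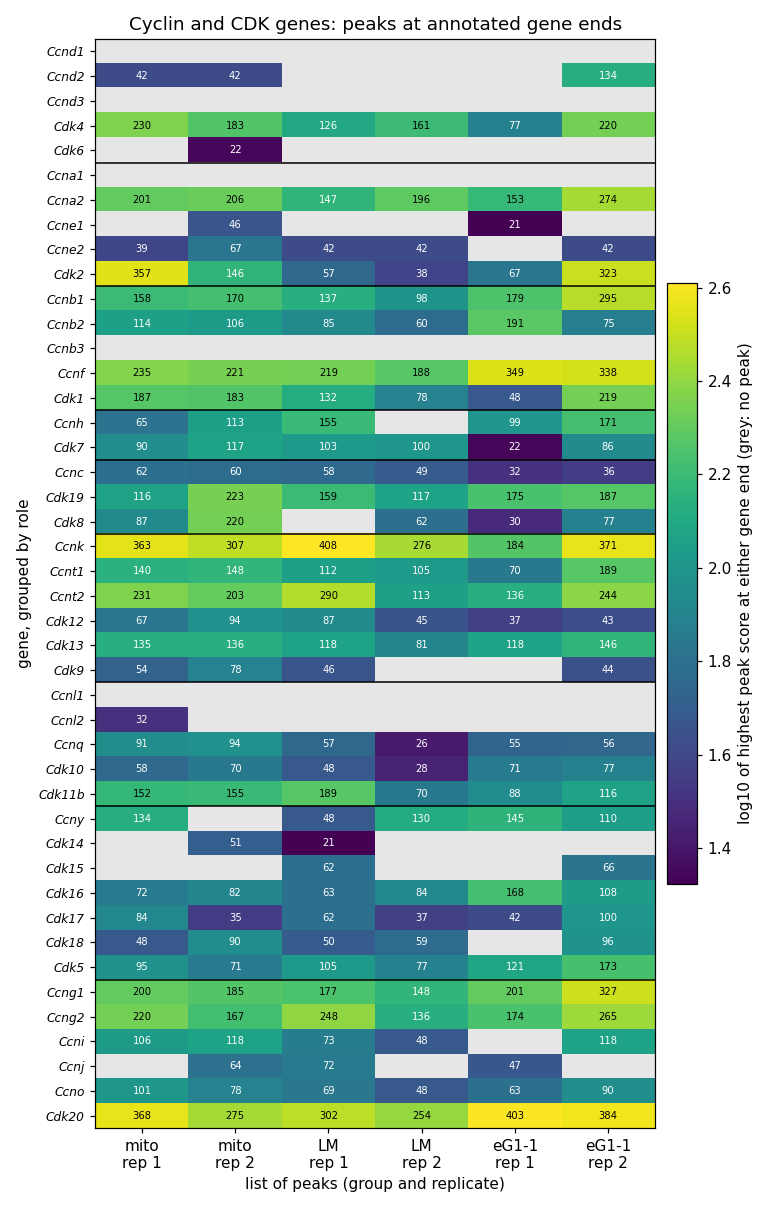
Highest peak score at either annotated end for the 44 genes (rows, grouped by role) in the 6 lists (columns), coloured on a log10 scale, with grey where no peak was called. Apart from Ccnb3 the mitotic genes have a value in all 6 lists, and the D-type cyclins and Ccne1 are mostly grey.

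The mitotic genes were open at every stage, apart from Ccnb3. Ccnb1, whose product activates Cdk1 for entry into mitosis, scored 158 and 170 in mito cells, 137 and 98 in LM cells and 179 and 295 in eG1-1 cells. Its peak covered the start site in all 6 lists, and its width ran from 322 bp in LM replicate 2 to 945 bp in LM replicate 1. Cdk1, the mitotic kinase, scored 187 and 183 in mito cells, 132 and 78 in LM cells and 48 and 219 in eG1-1 cells. In score, the 2 eG1-1 lists thus lay below and above every other list. By rank among the 6081 genes held by all lists, both lay below both mito lists. The percentiles of Cdk1 were 14.7 and 70.3 in eG1-1 cells against 81.8 and 74.6 in mito cells. The Cdk1 peak was 380 bp wide in eG1-1 replicate 1 where it was 788 to 968 bp wide in the others. Ccnb2, which encodes the second mitotic B-type cyclin, scored 114 and 106 in mito cells, 85 and 60 in LM cells and 191 and 75 in eG1-1 cells, so that eG1-1 overlapped both other groups. Ccnf, whose product cyclin F is the substrate-binding subunit of a ubiquitin ligase, scored 235 and 221 in mito cells, 219 and 188 in LM cells and 349 and 338 in eG1-1 cells. It was among the strongest members in each list, between the percentiles 85.1 and 97.5 of the 6081 genes held by all lists. Ccnb3, a cyclin known from meiosis, had no peak at either end or within 5 kb in any list.

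Of the D-type cyclins and their kinases, only Cdk4 was held by all lists. Cdk4, the G1 kinase, scored 230 and 183 in mito cells, 126 and 161 in LM cells and 77 and 220 in eG1-1 cells. Ccnd2, one of the D-type cyclins that activate it, scored 42 in each mito list, was not held by either LM list, and was held in eG1-1 by replicate 2 alone, at 134. The other D-type cyclins, Ccnd1 and Ccnd3, had no peak at either end in any list. Cdk6, the second G1 kinase, had a peak at an annotated end in mito replicate 2 alone, at 22, but at its start site it scored 19 and 64 in mito cells, 64 and 44 in LM cells and 28 and 37 in eG1-1 cells. The start-site values of Cdk6 were low in every list, and the mito values overlapped those of both other groups, while both eG1-1 values lay below both LM values.

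Peaks of Ccnd3, Ccnd2 and Ccnd1 also lay inside or beside the genes, away from the ends. The Ccnd3 body held 5 regions with a peak in all 6 lists, among them chr17:47571333-47572380, which scored 102 and 104 in mito cells, 107 and 79 in LM cells and 84 and 148 in eG1-1 cells. The region chr17:47511154-47512084 of Ccnd3 scored 82 and 115 in mito cells, 121 and 68 in LM cells and 69 and 110 in eG1-1 cells. Both regions overlapped between all 3 groups. The Ccnd2 body held chr6:127130096-127131369, which scored 37 and 83 in mito cells, 43 and 0 in LM cells and 82 and 151 in eG1-1 cells, where 0 stands for no peak called. A peak 1527 bp beyond the upper end of Ccnd1, at chr7:144941358-144942497, scored 101 and 72 in mito cells, 72 and 47 in LM cells and 63 and 0 in eG1-1 cells. Cdk6, a long gene, held 2 body regions in all 6 lists besides the one at its start site, of which chr5:3386257-3387476 scored 101 and 62 in mito cells, 52 and 109 in LM cells and 98 and 174 in eG1-1 cells.

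The genes of S phase entry differed among themselves. Ccna2, which encodes cyclin A2, scored 201 and 206 in mito cells, 147 and 196 in LM cells and 153 and 274 in eG1-1 cells, from a peak shared in all 6 lists with the boundary of the neighbouring gene Bbs7. Ccna1, the germ-cell A-type cyclin, had no peak at an annotated end, but at its start site it scored 65 and 123 in mito cells, 129 and 26 in LM cells and 68 and 58 in eG1-1 cells. Ccne1 was held by mito replicate 2 at 46 and by eG1-1 replicate 1 at 21, and by no other list. These 2 Ccne1 peaks did not overlap, at chr7:38107962-38108249 in mito and chr7:38107680-38107956 in eG1-1. Ccne2, which encodes cyclin E2, scored 39 and 67 in mito cells, 42 in each LM list, and 0 and 42 in eG1-1 cells. The mito and LM scores of Ccne2 came from a peak at chr4:11191278-11191576, which neither eG1-1 list held. The 42 in eG1-1 replicate 2 came from a separate peak at chr4:11189970-11190286. The E-type cyclins were thus low or without a call in every list, where Ccna2 was high in all.

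Cdk2, the kinase shared by the E-type and A-type cyclins, scored 357 and 146 in mito cells, 57 and 38 in LM cells and 67 and 323 in eG1-1 cells. The 357 in mito replicate 1 and the 323 in eG1-1 replicate 2 came from a peak beyond the far end of the gene that also lay at the boundaries of Pmel and Rab5b. All 6 lists held that peak, at 357 and 276 in mito cells, 311 and 231 in LM cells and 242 and 323 in eG1-1 cells, but its edge came within the 1 kb window, 911 and 896 bp from the gene, in only those 2 lists and lay 1023 to 1171 bp away in the others. At the start site of Cdk2 alone, the values were 21 and 146 in mito cells, 57 and 38 in LM cells and 67 and 62 in eG1-1 cells. At the start site the LM values lay between the mito values, and the larger differences at either end rest on that window edge.

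Of the CDK-activating kinase, Cdk7 was held by all lists and its cyclin Ccnh by 5. Cdk7, which phosphorylates other CDKs and the tail of RNA polymerase II, scored 90 and 117 in mito cells, 103 and 100 in LM cells and 22 and 86 in eG1-1 cells. Among the genes held by all lists, Cdk7 stood at the percentiles 38.0 and 41.4 in mito cells, 44.9 and 62.2 in LM cells and 1.1 and 18 in eG1-1 cells, so that both eG1-1 lists lay below all others. Ccnh scored 65 and 113 in mito cells, 155 and 0 in LM cells and 99 and 171 in eG1-1 cells, with no peak in LM replicate 2.

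The kinase module of Mediator, the bridge between transcription factors and the polymerase, was held in nearly every list. Cdk19 scored 116 and 223 in mito cells, 159 and 117 in LM cells and 175 and 187 in eG1-1 cells. Its close relative Cdk8 scored 87 and 220 in mito cells, 0 and 62 in LM cells and 30 and 77 in eG1-1 cells, with no call in LM replicate 1. Both eG1-1 scores and the LM score of Cdk8 lay below both of its mito scores. The shared cyclin Ccnc scored below Cdk19 in every list, at 62 and 60 in mito cells, 58 and 49 in LM cells and 32 and 36 in eG1-1 cells, and stood at the percentiles 17.9 and 6.8 in mito cells, 15.0 and 21.9 in LM cells and 4.6 and 1.3 in eG1-1 cells. A body peak of Cdk8, present in all lists within chr5:146260993-146261365, was among the strongest of each list. It scored 3490 and 4127 in mito cells, 2340 and 3318 in LM cells and 1716 and 1600 in eG1-1 cells, and only 12 to 18 peaks of a list scored higher. Its edges were the same to the base in both mito and both eG1-1 lists. Whether it reflects open chromatin or the mapping of reads at this place was not tested. The peak is also counted among the regions away from gene ends held by all lists below.

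The elongation factors, whose kinases phosphorylate RNA polymerase II in the body of genes, were held by all lists except for Cdk9. Ccnk, the cyclin of Cdk12 and Cdk13, scored 363 and 307 in mito cells, 408 and 276 in LM cells and 184 and 371 in eG1-1 cells, from a peak shared with the boundary of Setd3. Ccnt2, a cyclin of Cdk9, scored 231 and 203 in mito cells, 290 and 113 in LM cells and 136 and 244 in eG1-1 cells, and Ccnt1, the other one, 140 and 148 in mito cells, 112 and 105 in LM cells and 70 and 189 in eG1-1 cells. In scores, the 3 cyclins overlapped between eG1-1 and each other group. By rank among the genes held by all lists, Ccnk stood at the percentiles 82.1 and 91.0 in eG1-1 cells. Its mito percentiles were 98.5 and 95.7 and its LM percentiles 98.7 and 98.2. Ccnt2 stood at 68.6 and 75.6 in eG1-1 cells, below its 89.8 and 80.9 in mito cells, and overlapped LM. Ccnt1 overlapped both groups in rank too. Cdk9, the kinase of the positive elongation factor, scored 54 and 78 in mito cells, 46 and 0 in LM cells and 0 and 44 in eG1-1 cells. Cdk12 scored 67 and 94 in mito cells, 87 and 45 in LM cells and 37 and 43 in eG1-1 cells, and Cdk13 135 and 136 in mito cells, 118 and 81 in LM cells and 118 and 146 in eG1-1 cells. Both eG1-1 scores of Cdk12 thus lay below its other 4, and those of Cdk13 did not. The eG1-1 peaks of Cdk12 ended 316 and 27 bp before its annotated start, while those of the other lists ran into the gene. Around its start site alone Cdk12 was held by 5 lists, with no peak in eG1-1 replicate 1.

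The splicing-linked L-type cyclins were read differently at their ends and at their start sites. Ccnl1 had no peak at an annotated end, but at its start site it scored 44 and 50 in mito cells, 34 and 0 in LM, and had no call in either eG1-1 list. Ccnl2, the second L-type cyclin, had an end peak in mito replicate 1 alone, at 32, and scored 94 and 202 in mito cells, 178 and 141 in LM cells and 83 and 179 in eG1-1 cells at its start site. The L-type cyclins thus lay far apart in score at the start site, and only Ccnl2 was held there in all lists. Of the remaining genes of this set, Cdk11b, the kinase partner of the L-type cyclins, Cdk10 and Ccnq were held by all 6 lists, with scores of 26 to 189.

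Of the neuronal kinase Cdk5 and its relatives with cyclin Y, 3 of 7 genes were held by all lists and 4 by some. Cdk14, a kinase that acts with cyclin Y in Wnt signalling, was held by mito replicate 2 at 51 and LM replicate 1 at 21 alone, and Cdk15 by LM replicate 1 at 62 and eG1-1 replicate 2 at 66 alone. Cdk18 scored 48 and 90 in mito cells, 50 and 59 in LM cells and 0 and 96 in eG1-1 cells, and Ccny, which encodes cyclin Y, 134 and 0 in mito cells, 48 and 130 in LM cells and 145 and 110 in eG1-1 cells. Where these 4 genes lacked a call, 1 list of the group lacked it while the other held the gene, except for Cdk14 in eG1-1 and Cdk15 in mito. Cdk5, the neuronal kinase activated by non-cyclin partners, Cdk16 and Cdk17 were held by all lists, with scores of 35 to 173.

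Among the other members, Cdk20, a kinase known for its role in cilia, was strong in every list. It scored 368 and 275 in mito cells, 302 and 254 in LM cells and 403 and 384 in eG1-1 cells, and stood between the percentiles 92.1 and 98.6 of the genes held by all lists. Ccng1, a target of p53, Ccng2 and Ccno, a cyclin of multiciliated cells, were held by all lists, with scores of 48 to 327. Ccni scored 106 and 118 in mito cells, 73 and 48 in LM cells and 0 and 118 in eG1-1 cells. Ccnj scored 0 and 64 in mito cells, 72 and 0 in LM cells and 47 and 0 in eG1-1 cells, and so was held by 1 list of each group.

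The comparisons between stages asked which genes gained or lost an accessible boundary. A gene was called for 1 group and not another where both lists of the first held it and neither list of the second did. In late mitosis against mitosis, 0 of 44 members were called for LM and not mito, where 0.356% of all protein-coding genes were, and 1 for mito and not LM, Ccnd2, where 2.17% of all were. A single member of 44 is close to that background share. Around start sites, 0 of 35 members were called in either direction, with 0.36% of all genes called for LM and not mito and 2.1% for mito and not LM.

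In early G1 against late mitosis, 0 of 44 members were called for eG1-1 and not LM, where 2.35% of all genes were, and 0 for LM and not eG1-1, where 0.48% were. At start sites the counts were 0 of 35 in each direction, with 2.14% of all genes called for eG1-1 and not LM and 0.412% for LM and not eG1-1.

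Across mitotic exit as a whole, 0 of 44 members were called for eG1-1 and not mito, where 1.61% of all genes were, and 0 for mito and not eG1-1, where 1.97% were. At start sites, 0 of 35 members were called for eG1-1 and not mito, with 1.37% of all genes, and 1 for mito and not eG1-1, Ccnl1, with 1.98% of all genes. The count of members was thus 0 or 1 in every comparison and direction, where 0.356% to 2.35% of all genes were called. With 1 list left out, so that a single list stood for its group, the counts at either end were at most 5, and that 5, for mito and not eG1-1, came without eG1-1 replicate 2, where 7.88% of all genes were called. For mito and not LM the count was 3 without mito replicate 1 (5.21% of all genes), 2 without mito replicate 2 (3.54% of all), 3 without LM replicate 1 (11.2% of all) and 2 without LM replicate 2 (3.42% of all).

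**Figure D3:**
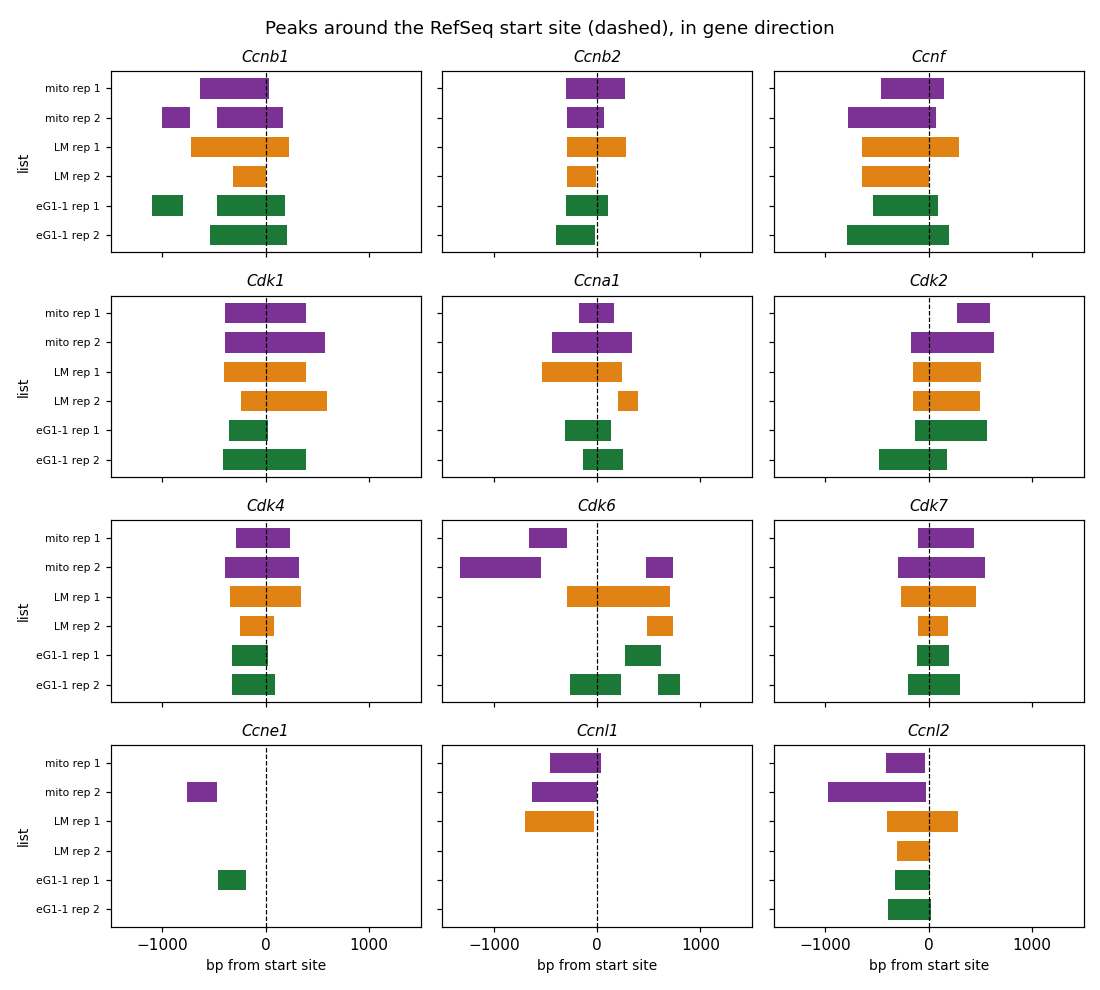
Extent of peaks around the start site (horizontal axis, bp from the start site in gene direction) in the 6 lists for 12 members (panels), coloured by group. The peaks of Ccnb1, Cdk1 and Ccnf lie at the start site in every list, Ccne1 has peaks in 2 lists and Ccnl1 in 3, none of them eG1-1.

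Peaks that covered a start site had a higher median width at the members than at all genes in each list except eG1-1 replicate 1. The gap was largest in LM replicate 1. In 16 to 22 such member peaks per list, the median width was 664 and 786 bp in mito cells, 825.5 and 462.5 bp in LM cells and 440 and 658 bp in eG1-1 cells. Over all peaks covering a start site, the medians were 651 and 722 bp in mito cells, 653 and 443 bp in LM cells and 477 and 608 bp in eG1-1 cells. In both sets LM replicate 2 and eG1-1 replicate 1 had the narrowest peaks. The centre of the strongest peak within 1 kb lay before the start site for 68.8% to 86.7% of the members' start sites with such a peak. Over the start sites of all genes with such a peak, it did for 56.7% to 68.1%.

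Ranks were compared for the 25 members among the 6081 genes that all 6 lists held. Ranks within a list were turned into normal scores, so that a difference of 1 equals 1 SD of all these genes, and tested with limma over all 6081 genes with Benjamini-Hochberg adjustment at 0.05. Of the members, 0 passed in LM minus mito, 0 in eG1-1 minus LM and 0 in eG1-1 minus mito, and 0 of the 6081 genes (0%) passed in each. At an unadjusted p under 0.05, limma gave 1 member in LM minus mito, 5 in eG1-1 minus LM and 2 in eG1-1 minus mito. The same threshold gave 406 genes (6.68%) in LM minus mito, 432 genes (7.1%) in eG1-1 minus LM and 797 genes (13.1%) in eG1-1 minus mito. The 3 contrasts share lists and are not independent, and a p that misses the threshold does not show that the ranks were equal.

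The members under the unadjusted threshold are named after their values were seen. Cdk2 had an LM minus mito difference of -2.30 (SE 0.647, limma adjusted p = 0.718), and the adjusted p ran from 0.320 to 0.977 over the alternatives. This value rests on the far-end peak, which the 1 kb window took in for mito replicate 1 and for neither LM list. The difference was -0.14 with a 2 kb window, which takes in that peak in every list, 0.18 at start sites alone and -1.32 without mito replicate 1. Cdk7 had an eG1-1 minus LM difference of -1.69 (SE 0.508, limma adjusted p = 0.689), and its adjusted p ran from 0.473 to 0.999 over the alternatives. In eG1-1 minus mito, Cdk7 had a difference of -1.34 (limma adjusted p = 0.303, 0.237 to 0.807 over the alternatives). Without eG1-1 replicate 1, the Cdk7 difference was -0.97 in eG1-1 minus LM and -0.61 in eG1-1 minus mito. For Cdk12 the differences were -1.06 in eG1-1 minus LM and -0.996 in eG1-1 minus mito. Ccnc had -1.06 and Ccnk -1.03 in eG1-1 minus LM, and Cdk2 1.40, which turned to -0.48 with a 2 kb window.

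Groups of lists that did not overlap in rank were counted as a description. Both LM lists ranked above both mito lists for 2 of 25 members, where 17.2% of the genes did, and below for 5, where 16.8% did. Both eG1-1 lists ranked above both LM lists for 5 members, where 18.7% of the genes did, and below for 4, where 18.4% did. Both eG1-1 lists ranked above both mito lists for 4 members, where 23.5% of the genes did, and below for 10 (40.0%), where 24.2% did. The 10 were Cdk7, Ccnk, Cdk12, Ccnq, Cdk4, Cdk1, Cdk11b, Ccnc, Ccna2 and Ccnt2, and the 4 were Cdk5, Ccng1, Ccnb1 and Cdk16. Ccnb1 stood at the percentiles 73.3 and 70.3 in mito cells, 63.4 and 61.0 in LM cells and 81.0 and 83.6 in eG1-1 cells. Cdk1 stood at 81.8 and 74.6 in mito cells, 60.9 and 47.7 in LM cells and 14.7 and 70.3 in eG1-1 cells. In eG1-1 the lists of Ccnb1 lay above all others, and those of Cdk1 lay far apart.

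**Figure D4:**
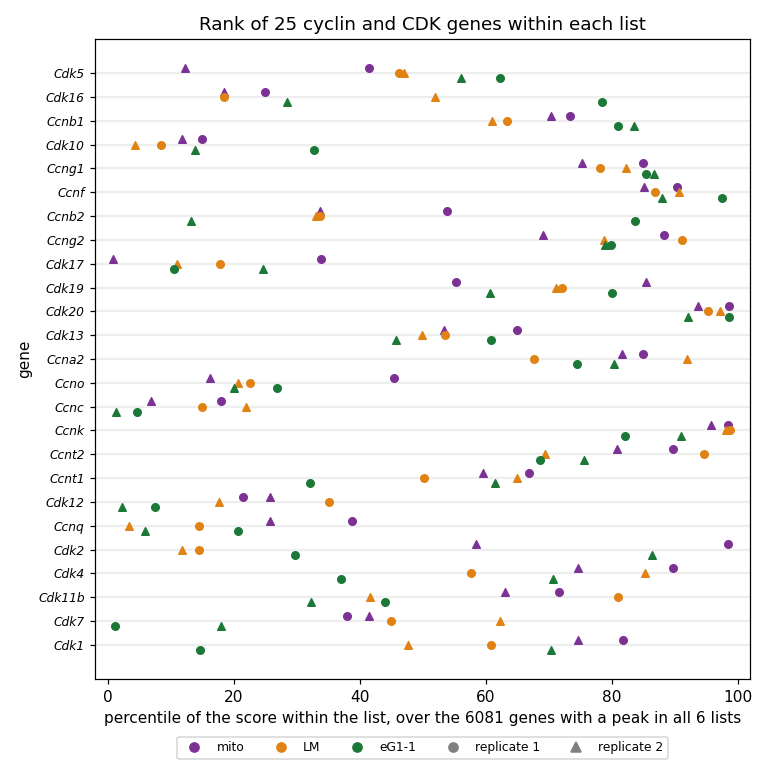
Percentile of each of the 25 members (rows, ordered by the difference between eG1-1 and mito) among the 6081 genes held by all lists, with circles for replicate 1 and triangles for replicate 2, coloured by group. Cdk5 stands at the top, Cdk1 at the bottom with eG1-1 at 14.7 and 70.3, and both eG1-1 points lie above both mito points for 4 members and below them for 10.

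Regions away from annotated gene ends were called most often for early G1, as were such regions near all genes. These counts were added after the data had been seen. Regions inside a member or within 5 kb of it, and at no annotated end of a protein-coding gene, numbered 70 near 30 members, and 16 (22.9%) were held by all lists, where 9.20% of 29482 such regions near any protein-coding gene were. Of the 70, 5 lay within 1 kb of a start site, at Ccna1, Ccnl1, Ccnl2, Cdk16 and Cdk6, among them 3 of the 16. Without regions at start sites, 13 of 65 (20.0%) were held by all lists, where 8.19% of 27717 regions were. By the same rule, 7 of the 70 (10.0%) were called for eG1-1 and not mito, where 9.66% of all regions were, and 1 for mito and not eG1-1, where 1.31% were. For eG1-1 and not LM there were 5, where 10.7% of all regions were called, and for LM and not eG1-1 there were 0, where 0.332% were called. For LM and not mito there was 1, where 0.987% were called, and for mito and not LM there was 1, where 3.23% were called. Counts of 1 among 70 are too few to set against a background, and the 5 for eG1-1 and not LM are 7.14%. Leaving out a list makes a single list stand for its group and raised the counts near all genes too. Without eG1-1 replicate 1, 26 member regions (37.1%, 40.0% of all regions) were called for eG1-1 and not mito and 24 (34.3%, 43.1% of all) for eG1-1 and not LM. Without eG1-1 replicate 2 these were 13 (18.6%, 20.2% of all) and 11 (15.7%, 21.5% of all). Without LM replicate 1 there were 8 (11.4%, 15.5% of all) for eG1-1 and not LM and 7 (10.0%, 7.13% of all) for LM and not mito. Without mito replicate 1 there were 7 (10.0%, 14.0% of all) for mito and not LM and 6 (8.57%, 7.18% of all) for mito and not eG1-1. In eG1-1 replicate 2, the longest list, the members also held the most body peaks, 48 where the other lists held 22 to 30.

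The 7 regions of early G1 lay at Ccne1, Ccnd3, Cdk14, Ccny, Ccno and, for 2 of them, Cdk7. The Ccne1 region, 4392 bp before the gene at chr7:38111882-38112389, scored 80 and 182 in eG1-1 cells and had no peak in LM or mito. A Ccnd3 region at chr17:47508070-47508439 scored 42 and 95 in eG1-1 cells and a Cdk14 region at chr5:5165777-5166509 scored 42 and 42 there, with no peak in LM or mito. The Ccny region, inside the gene, scored 27 and 44 in eG1-1 cells, also with no peak in LM or mito. The Ccne1, Ccnd3, Cdk14 and Ccny regions were thus called in early G1 alone. Within Cdk7, chr13:100724275-100724592 had no peak in mito cells, scored 0 and 47 in LM cells and 27 and 96 in eG1-1 cells. The second called Cdk7 region was chr13:100703653-100703953, with no peak in mito cells, 0 and 29 in LM cells and 37 and 47 in eG1-1 cells. A further Cdk7 region, chr13:100721390-100722258, was not among the 7. It scored 0 and 47 in mito cells, 94 and 98 in LM cells and 121 and 211 in eG1-1 cells. This region was picked after its values were seen, and the share of all regions with such a pattern was not computed. The scale of the score is not stated and regions were not ranked, so its groups were not compared. The regions called in mito or LM were 1 at Ccnl1 (mito and not eG1-1, the start-site peak given above), 1 at Cdk17 (mito and not LM) and 1 at Ccno (LM and not mito), the last also called in eG1-1 and not mito.

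Genes that regulate the cyclins and CDKs, a list of 45 inhibitors, phosphatases, kinases and partners, were held about as often as the members. All 45 were found in the annotation, 28 (62.2%) were held by all 6 lists and 2 (4.44%), Cdkn1a and Cdk2ap1, by none. In mito cells 35 and 38 of them were held, in LM cells 38 and 29, and in eG1-1 cells 36 and 37. Ccnb1ip1, a ubiquitin ligase that binds cyclin B1, was called for mito and not LM (2.17% of all genes) and for eG1-1 and not LM (2.35% of all), with 56 and 64 in mito cells, 0 in both LM lists, and 28 and 47 in eG1-1 cells. Med13l, a subunit of the Mediator kinase module, was called for LM and not eG1-1 (0.48% of all), with 0 and 39 in mito cells, 28 and 27 in LM cells and 0 in both eG1-1 lists. In the other 3 directions 0 of the 45 were called. Cdkn2d, an inhibitor of Cdk4 and Cdk6, scored 329 and 248 in mito cells, 298 and 251 in LM cells and 360 and 507 in eG1-1 cells, and Wee1, the kinase that restrains Cdk1, 126 and 116 in mito cells, 127 and 157 in LM cells and 134 and 150 in eG1-1 cells. Mnat1, the third subunit of the CDK-activating kinase, was held by mito replicate 2 at 146 and LM replicate 1 at 110 alone.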

How the data were processed

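ATAC-seq peaks of 6 samples were used, 2 each of mito, LM and eG1-1. The deposited lists give a position and a score for each peak, 1 list per sample, on mm10. The submitters' processing notes name STAR 2.7.0e, SAMtools 1.10, Picard, bedtools, deepTools 3.5.1 and MACS2 2.2.4, without roles, and the scale of the score is not given in the sources used here. No read counts were used, so depth and its precision are unknown. The labels do not say whether replicates were separate cultures, so the spread may be technical.

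Gene ends came from RefSeq (GRCm38.p6) and start sites from its start-site sequences. Highest boundary scores were ranked and tested with limma 3.58.1 (R 4.3.3) on all 6 lists together; Python 3.11.15 did the rest. Counts of genes held carry no test. Alternatives changed the window (500 bp, 2 kb), the ends used, the score (at least 50), list length, overlap (200 bp), the score per gene (a sum in place of the highest), the genes ranked, the replicate term and the lists used. The scripts were tested on simulated data. Members and lists were chosen with earlier results of these data known. Named with all values were the members of the cell cycle and transcription roles and those held by only some lists or by 1 group and not another. The peak names give all replicate 1 lists the same folder code and all replicate 2 lists another. No label says what the code stands for, so whether same-numbered lists share a batch is unknown. Deviations of same-numbered lists correlated at 0.0268 to 0.0594 over the 6081 genes.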

Additional observations from a re-analysis of the deposited data

How the results depend on the processing

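No member passed limma at 0.05 under any alternative run, and with the replicate block the members called were 0 in each of the 3 contrasts. Other measures moved with the processing, and the cause was not tested except for Cdk2, where the window edge took in a peak in some lists only. The mean share of members held in mito was 72.7% with a 500 bp window, 83.0% with 2 kb, 87.1% at start sites, 70.5% at a score of at least 50 and 76.1% with lists of equal length. In LM it was 82.9% at start sites and 56.8% at a score of at least 50, and in eG1-1 59.1% at that score and 61.4% with equal length. Leaving out 1 list gave 77.3% to 81.8% in mito and 68.2% to 77.3% in LM and in eG1-1. Members held by all 6 lists numbered 16 at a score of at least 50, where 3912 of the 21887 protein-coding genes were held. Without 1 list they numbered 25 to 28, where 6142 to 7171 of all protein-coding genes were held.

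Members held by both lists of 1 group and neither of another numbered as follows. For mito and not LM there were 0 at start sites, 2 at a score of at least 50 (2.99% of all genes) and 0 with equal length. Without 1 list there were 2 to 3 (3.42% to 11.2% of all). For mito and not eG1-1 there were 1 at start sites and 3 at that score (2.58% of all). With equal length there were 4 (Cdk9, Ccne2, Ccnc and Cdk12, where 5.35% of all genes were called). Without 1 list there were 0 to 5 (2.97% to 7.88% of all). For eG1-1 and not LM there was 1 at that score (Cdk10, 2.43% of all) and 1 without each list in turn (3.43% to 8.83% of all). For LM and not eG1-1 there were 3 with equal length (2.69% of all) and 0 to 3 without 1 list (0.832% to 3.29% of all). Without 1 list there were 0 to 1 for LM and not mito (0.905% to 2.29% of all). The same held for eG1-1 and not mito (2.51% to 5.44% of all).

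Shares over all regions were not computed at a score of at least 50 or with equal length, so distal counts there have no background. Distal regions for LM and not mito numbered 2 at a score of at least 50 and 4 with equal length. Without 1 list they numbered 1 to 7 (1.45% to 7.13% of all regions). For mito and not eG1-1 they numbered 0 at that score, 2 with equal length and 2 to 6 without 1 list (1.95% to 7.18% of all). For mito and not LM they numbered 0 with equal length and 1 to 7 without 1 list (5.38% to 14.0% of all). For eG1-1 and not LM they numbered 3 with equal length and 7 to 24 without 1 list (15.2% to 43.1% of all). For LM and not eG1-1 they numbered 1 with equal length and 0 to 4 without 1 list (0.59% to 4.24% of all). For eG1-1 and not mito they numbered 7 to 26 without 1 list (11.7% to 40.0% of all), the highest being without eG1-1 replicate 1. Of the 5 members with an unadjusted p under 0.05 (Ccnc, Ccnk, Cdk12, Cdk2 and Cdk7), the others not being examined, the sign turned for Cdk2: its eG1-1 minus LM difference was -0.48 with a 2 kb window, and its LM minus mito difference was 0.19 with 500 bp, 0.21 with at least 200 bp of overlap and 0.18 at start sites. Unknown depth limits every absent call.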
